A study of Mus musculus with 3 samples.

Results

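The oxidative phosphorylation genes were 106 genes chosen by symbol, of 14426 genes with at least 10 unique molecular identifiers (UMIs, each marking 1 captured RNA molecule) over all barcodes and 28692 genes in the files. For the nuclear genome the symbols begin with Nduf, Sdha, Sdhb, Sdhc, Sdhd, Uqcr, Cox4 to Cox8 or Atp5, and for the mitochondrial genome with mt-Nd, mt-Co, mt-Cyt or mt-Atp. They comprise 79 nuclear subunits, all 13 mitochondrially encoded subunits and 14 assembly factors or other genes with the same prefixes. Of 109 genes with such symbols, 3 fell under the minimum: Cox8b had 3 UMIs, and Cox8c and Cox7b2 had 0. The members nearest above it were Ndufa4l2 with 20 UMIs and Cox4i2 with 33 UMIs.

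Oxidative phosphorylation makes most ATP of a resting cell. Complexes I (NADH dehydrogenase) and II (succinate dehydrogenase) pass electrons to ubiquinone, complex III (cytochrome bc1) passes them to cytochrome c, and complex IV (cytochrome c oxidase) passes them to oxygen. Complexes I, III and IV pump protons across the inner mitochondrial membrane, and complex V (ATP synthase) uses the gradient. Complex II is built from nuclear genes alone, whereas the other complexes need subunits from both genomes. Kupffer cells, from which these libraries were made, are macrophages that reside in the liver, and in macrophages the balance between oxidative phosphorylation and glycolysis shifts with activation.

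Liver cells of male mice aged 8 weeks at feeding were profiled by droplet 3′ single-cell RNA sequencing. A mouse on normal chow, a mouse given 5% ethanol in a Lieber-DeCarli liquid diet for 3 days, and a mouse given the same for 10 days gave 1 library each. Live non-parenchymal cells in the F4/80-high, CD11b-intermediate gate had been sorted in every case. The chow animal did not receive the liquid diet, so ethanol, the liquid diet and the individual mouse cannot be told apart. With 1 mouse per diet no test between diets was possible, and all intervals (95%) cover counting error only.

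The libraries held 21650747, 21471782 and 16538895 UMIs in the order chow, 3 days and 10 days. In the same order 3001, 4340 and 3471 barcodes had at least 1000 UMIs and 300 genes, where the submitters describe 3000 to 5000 cells per sample. After removal of the highest doublet scores, 2468, 3658 and 2876 cells were Kupffer-like, which is 85.7%, 87.8% and 86.3% of the kept cells, with medians of 4331, 2928 and 2822.5 UMIs per cell. Clusters that mixed Kupffer genes with genes of T, neutrophil or erythroid cells held a further 4.03%, 4.25% and 2.46% and were not used. The members and all mitochondrially encoded genes were kept out of the clustering. Between 19 and 23 cell barcodes were shared by each pair of libraries, and leaving them out moved no ratio of a named member beyond counting error. All 28 Kupffer cell markers were detected in the Kupffer-like cells of each library and summed to 46740, 47674 and 46776 CPM (counts per 1000000 UMIs), whereas the 31 T and NK cell markers summed to 177, 138 and 159 CPM and the 22 hepatocyte markers to 1382, 1559 and 1115 CPM.

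Nuclear subunit genes are known targets of nuclear respiratory factor 1 (NRF1) and of the ETS family factor GABP, so their promoters were searched for the letters of both motifs. RefSeq (GRCm38.p6) listed a promoter of 300 bases, 250 before the start and 50 after it, for 64 of the 79 nuclear subunits. The NRF1 motif (GCGC, then any base, then TGCGC), on either strand, was found for 17 of them (26.6%), against 5.19% of the 27025 genes in the table. Its exact form, with A as the middle base, was found for 5 (7.81%), against 1.07% of all genes. The ETS motif CCGGAAG, on either strand, was found for 16 (25%), against 9.93% of all genes. At least 1 of the 2 motifs was found for 29 (45.3%), against 14.0%. These matches describe letters and do not show binding.

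The 150 bases upstream of the start are shown for 4 members whose levels are described further on and whose window held a match. All lie on the minus strand, end before both the RefSeq and the GENCODE start, and carry the matches in capitals. Sdha, at chr13:74350281-74350430, has 2 NRF1 matches. Ndufb4, at chr16:37654454-37654603, has 1 and Cox6a1, at chr5:115348982-115349131, has 2. Uqcrh, at chr4:116075072-116075221, has 1 ETS match, in reverse.
Sdha: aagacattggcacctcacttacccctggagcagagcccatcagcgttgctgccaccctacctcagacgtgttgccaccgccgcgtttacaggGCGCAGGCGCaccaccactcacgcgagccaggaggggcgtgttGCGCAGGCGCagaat
Ndufb4: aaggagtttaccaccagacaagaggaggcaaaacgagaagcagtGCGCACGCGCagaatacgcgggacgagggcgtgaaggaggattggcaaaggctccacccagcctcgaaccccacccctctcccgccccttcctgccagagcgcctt
Cox6a1: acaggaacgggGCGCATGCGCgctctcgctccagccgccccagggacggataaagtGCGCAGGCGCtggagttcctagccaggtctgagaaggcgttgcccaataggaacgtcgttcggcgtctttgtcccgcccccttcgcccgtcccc
Uqcrh: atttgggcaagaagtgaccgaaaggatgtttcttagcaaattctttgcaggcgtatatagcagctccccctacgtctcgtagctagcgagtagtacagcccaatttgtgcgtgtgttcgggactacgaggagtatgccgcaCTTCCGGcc

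In Kupffer-like cells the nuclear and the mitochondrially encoded subunits took different courses. Nuclear subunits together made up 19849 CPM on chow, 18256 CPM at 3 days and 17586 CPM at 10 days. The level at 3 days was 0.920 of chow (interval 0.914 to 0.925), and the level at 10 days was 0.886 of chow (0.880 to 0.892). Mitochondrially encoded subunits made up 55734 CPM on chow, 55681 CPM at 3 days and 69882 CPM at 10 days. Their level at 3 days was 0.999 of chow (0.996 to 1.00), whereas at 10 days it was 1.25 of chow and 1.26 of the 3-day level. The library at 10 days was thus the lowest for nuclear and the highest for mitochondrially encoded subunits, and the mitochondrially encoded UMIs per nuclear UMI were 2.81, 3.05 and 3.97 in time order. UMIs of the 3′ assay count captured molecules and were not divided by transcript length.

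Members were counted among the 7503 genes with a mean of at least 10 CPM in Kupffer-like cells, which included 74 nuclear subunits, all 13 mitochondrially encoded subunits and 8 assembly factors. At 3 days 63 of the 74 nuclear subunits lay below their chow level, where 43.9% of all measured genes did. Their median log2 ratio (1 CPM added) was -0.15, against 0.04 for all measured genes. At 10 days 66 of 74 lay below chow, where 39.6% of all measured genes did, and the median was -0.22 against 0.07. Past 1.2-fold, 15 were lower at 3 days (background 12.3%) and 31 at 10 days (background 14.6%), and 1 and 3 were higher (background 19.8% and 24.8%). No nuclear subunit passed 1.5-fold, where 1.37% of all genes were lower and 3.23% higher at 3 days, and 2.63% lower and 4.08% higher at 10 days. Of the 13 mitochondrially encoded subunits, 6 lay above chow at 3 days, where 56.1% of all genes did, and all 13 did at 10 days, where 60.4% of all genes did. Past 1.2-fold, 10 of the 13 were higher than chow at 10 days (background 24.8%) and 11 were higher than at 3 days (background 16.5%).

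**Figure D1:**
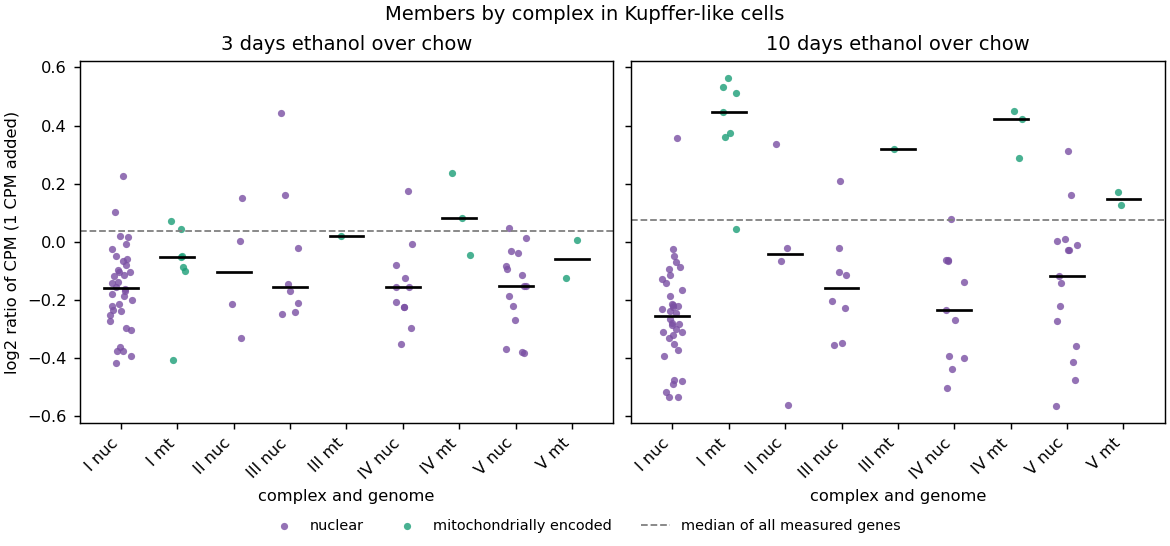
Log2 ratio of CPM in Kupffer-like cells, 3 days of ethanol over chow (left) and 10 days over chow (right), by complex and genome. Each point is 1 measured member, black bars are medians and the dashed line is the median of all measured genes. At 10 days all 13 mitochondrially encoded members (green) lie above 0, and 66 of 74 nuclear members (purple) lie below it.

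Both levels moved with the depth of a cell. Across Kupffer-like cells the nuclear share of UMIs was higher in deeper cells, with Spearman's rho of 0.53 on chow (2468 cells), 0.58 at 3 days (3658 cells) and 0.50 at 10 days (2876 cells). The mitochondrially encoded share was lower in deeper cells, with rho of -0.51, -0.38 and -0.45 in the same order. The 2 measures share their denominator with the depth, so these values are descriptive. The chow library had the deepest cells, and the part of depth in the diet ratios was therefore measured by weighting 5 bins of UMIs per cell, from 1000 to under 10000, equally in each library.

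At matched depth the nuclear sum at 3 days was 0.991 of chow and that at 10 days 0.969 of chow. Of the 74 measured nuclear subunits 45 then lay below chow at 3 days and 51 at 10 days, where 51.8% and 49.3% of all genes did. Past 1.2-fold, 3 were lower at 3 days, where 14.7% of all genes were, and 10 were lower at 10 days, where 979 of the 7503 genes were. Most of the nuclear difference seen without matching was therefore not seen at matched depth. With the 7 Kupffer-like clusters weighted equally, the nuclear sum at 10 days was 1.00 of chow and 1 of the 74 was past 1.2-fold lower. No share of all measured genes is given for this weighting, so the count is not read as a result about the members. The mitochondrially encoded sum at 3 days was 0.843 of chow, with all 13 members lower, and at 10 days it was 1.05 of chow, with 9 higher and 4 lower, where 50.7% of all genes were higher. The level at 10 days was 1.25 of that at 3 days with all 13 members higher, where 52.0% of all genes were, 12 of them in each of the 5 bins, and 11 were past 1.2-fold, against a background of 15.4%. In single bins this last ratio ran from 1.21 to 1.30, and in the 7 Kupffer-like clusters from 1.14 to 1.30. The ratio of 10 days over chow ran from 0.960 to 1.15 in bins and from 0.863 to 1.24 in clusters, so its direction depended on the cells compared.

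**Figure D2:**
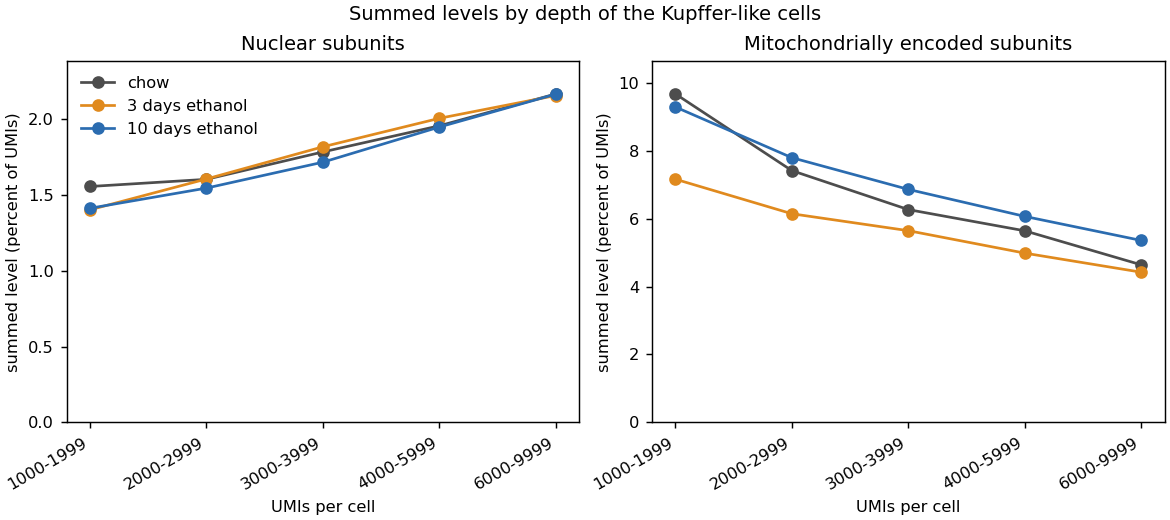
Summed level, as percent of UMIs, of nuclear (left) and mitochondrially encoded (right) subunits in Kupffer-like cells by UMIs per cell. Each point is the pooled cells of 1 bin in 1 library. The nuclear lines lie close together, whereas 10 days lies above 3 days in all 5 bins for the mitochondrially encoded subunits.

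Free RNA moved with the mitochondrially encoded level. In barcodes of 10 to 100 UMIs, which mostly hold no cell, mitochondrially encoded subunits made up 97255 CPM on chow, 99150 CPM at 3 days and 180094 CPM at 10 days, and nuclear subunits 20321, 20190 and 16505 CPM. The library at 10 days stood apart in these barcodes. Gm42418, a gene that overlaps ribosomal RNA sequence, moved alongside and had 1786, 1954 and 3947 CPM in Kupffer-like cells in time order. Subtracting an estimated free RNA share of 7.20%, 8.02% and 8.63% of Kupffer-like UMIs gave a mitochondrially encoded level at 10 days of 1.13 of chow and 1.15 of 3 days. Cells with over 10% mitochondrial UMIs, a common sign of damage, were 7.41%, 6.01% and 13.1% of Kupffer-like cells. Without them the ratios were 1.23 and 1.21, and without cells over 5% they were 1.09 and 1.06. Both limits act on the measured quantity itself. The part of cell damage in the result was not tested beyond these values.

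Without depth matching, mt-Nd1 stood apart from the other mitochondrially encoded members of complex I, the core proton-pumping subunits. It had 5089 CPM on chow, 3842 CPM at 3 days and 5243 CPM at 10 days, so that the level at 3 days was 0.755 of chow (0.746 to 0.764). At matched depth this ratio was 0.645 and lay below 1 in all 5 bins. All 7 mitochondrially encoded members of complex I then lay below chow at 3 days, where 51.8% of all measured genes did. Their matched sum was 0.720 of chow, and 5 were past 1.2-fold lower, where 14.7% of all measured genes were. mt-Nd1 at 10 days was 1.03 of chow, the smallest ratio of the 13 members, and 0.875 at matched depth. mt-Nd2 had 2272, 2140 and 3238 CPM and mt-Nd3 had 702, 680 and 1016 CPM in time order. Without matching, both were near chow at 3 days and highest at 10 days. Their 10-day levels were 1.43 and 1.45 of chow, and 1.16 and 1.08 at matched depth. mt-Nd4 had 3093, 2888 and 3974 CPM, and mt-Nd4l, read from the same transcript, had 208, 218 and 308 CPM. mt-Nd5 had 278, 287 and 380 CPM. mt-Nd6, the only member on the light strand, had 19.8, 19.1 and 26.0 CPM, with the widest interval of its 10-day ratio (1.09 to 1.58). All 7 genes were at least 1.32-fold higher at 10 days than at 3 days, and their sum was 1.41 of the 3-day sum (1.40 to 1.42), the largest such ratio among the complexes. The annotated mt-Nd4l and mt-Nd4 overlap on the same strand, as do mt-Atp8, mt-Atp6 and mt-Co3, so UMIs may be split unevenly between neighbours.

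mt-Cytb, the mitochondrially encoded subunit of complex III that carries the quinone sites, had 4159 CPM on chow, 4218 CPM at 3 days and 5188 CPM at 10 days. Without matching, chow and 3 days were close, and 10 days lay at 1.25 of chow. At matched depth mt-Cytb at 3 days was 0.863 of chow and lay below chow in every bin. Its matched 10-day level was 1.05 of chow, and the bins did not share a direction. In the catalytic core of complex IV, mt-Co1, which binds the haem groups, had 11125, 13096 and 15214 CPM in time order and was already higher than chow at 3 days, at 1.18 (1.17 to 1.19). At matched depth that ratio was 0.986, with 3 bins above 1 and 2 below. mt-Co3 had 10983, 11617 and 14708 CPM and mt-Co2 had 5672, 5499 and 6936 CPM, so mt-Co2 lay below chow at 3 days. At matched depth all 3 lay below chow at 3 days, with a sum of 0.905 of chow. The complex IV sum at 10 days was 1.33 of chow (1.32 to 1.33), the largest over chow among the complexes. The membrane subunits of ATP synthase had the smallest difference. mt-Atp6 had 11629, 10672 and 13102 CPM and mt-Atp8 had 504, 506 and 549 CPM, and their sum at 10 days was 1.13 of chow, and 0.990 at matched depth.

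**Figure D3:**
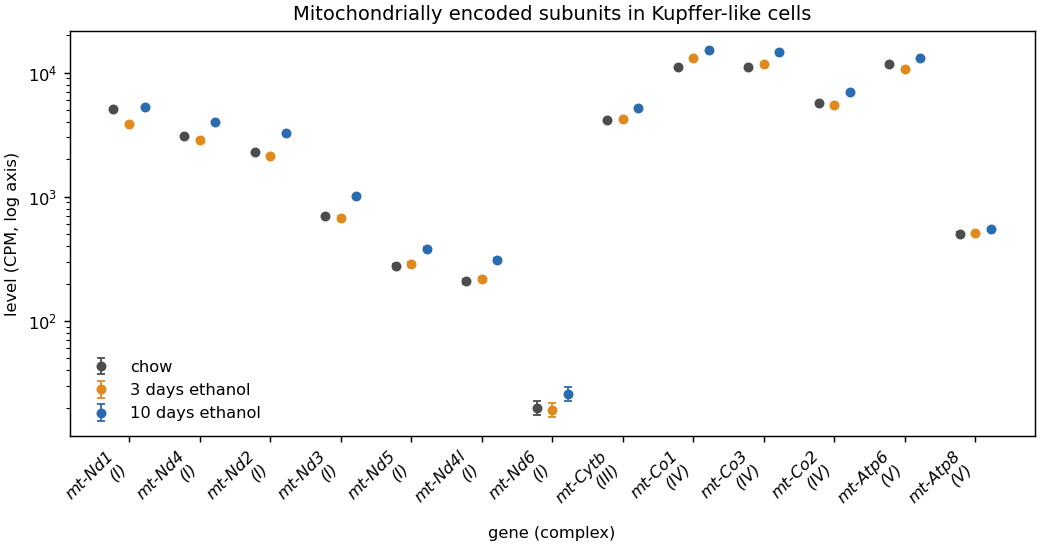
Level in CPM (log axis) of the 13 mitochondrially encoded subunits in Kupffer-like cells of each library, with the complex in brackets. Points are pooled cells of 1 library and bars are 95% counting intervals, mostly hidden by the points. The 10-day point is the highest of each trio, and mt-Nd1 is lowest at 3 days.

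At 10 days complex I had the nuclear difference shared by the largest part of its members. Its 36 nuclear subunits summed to 5898 CPM on chow, 5245 CPM at 3 days and 4895 CPM at 10 days, which is 0.889 (0.880 to 0.899) and 0.830 (0.820 to 0.840) of chow. At 10 days 35 of the 36 lay below chow, where 39.6% of all measured genes did, and 18 were past 1.2-fold lower, where 14.6% were. At matched depth 32 of 36 lay below chow, with a sum of 0.917 of chow, and 7 were past 1.2-fold lower, where 979 of the 7503 measured genes were. The matched sums of complexes II to V at 10 days were 0.979, 1.02, 0.989 and 0.983 of chow. Ndufb4, an accessory subunit of the membrane arm, had 176 CPM on chow, 137 CPM at 3 days and 121 CPM at 10 days. It was the lowest of complex I at 10 days, at 0.689 of chow (0.640 to 0.743), and lay at 0.810 at matched depth with all 5 bins below 1. Ndufa12, an accessory subunit of the matrix arm, had 107, 79.8 and 74.5 CPM and was lowest at 3 days, at 0.747 of chow. Ndufa2, the complex I member with the highest mean, had 585, 520 and 501 CPM. Ndufa6, an accessory subunit, had the highest 3-day ratio of complex I, with 244, 286 and 229 CPM in time order and a ratio of 1.17 (1.11 to 1.23), or 1.2 at matched depth. Ndufb3, with 132, 130 and 130 CPM, had the highest 10-day ratio among members that reached 50 CPM, at 0.983. Ndufs1, the largest subunit of complex I, was the 1 member above chow at 10 days, with 36.4, 39.2 and 46.9 CPM, and is named here after its value was seen.

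The 4 subunits of complex II, the enzyme shared with the citric acid cycle, did not move together. Sdha, the flavoprotein that oxidises succinate, had 124 CPM on chow, 138 CPM at 3 days and 157 CPM at 10 days. Its 10-day level was 1.26 of chow (1.17 to 1.36), and 1.19 at matched depth with all 5 bins above 1. Sdhb, its iron-sulfur partner in the same catalytic head, had 129, 111 and 87.0 CPM. Its 10-day level was 0.676 of chow (0.619 to 0.738), and 0.771 at matched depth with all 5 bins below 1. The 2 genes were thus close on chow and ordered Sdha over Sdhb at 10 days. Sdhc, a membrane anchor, had 98.3, 78.0 and 94.0 CPM and was low at 3 days alone, at 0.793 of chow (0.726 to 0.866) and below 1 in all 5 bins. Sdhd, the other anchor, had 105, 106 and 104 CPM and was near chow at both times. The sum of the 4 was 0.968 of chow at 10 days, so it concealed these differences.

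In complex III the hinge protein gene Uqcrh stood apart from the rest. It had 556 CPM on chow, 757 CPM at 3 days and 644 CPM at 10 days, and its 3-day ratio of 1.36 (1.32 to 1.41) was the highest of all measured nuclear subunits. At matched depth the ratio was 1.35, and it lay between 1.2 and 1.51 in the 5 bins. The 10-day ratio was 1.16 (1.12 to 1.2), and 1.15 at matched depth with all 5 bins above 1. Uqcr10, a small subunit, had 335, 282 and 262 CPM, and its 10-day ratio of 0.782 was 0.922 at matched depth and 1.04 with clusters weighted equally. Uqcrfs1, the Rieske iron-sulfur protein, had 94.1, 105 and 87.4 CPM, and its 3-day ratio was 1.12 (1.03 to 1.22). With Uqcr10 and Uqcrfs1, all 7 nuclear subunits of complex III other than Uqcrh lay below chow at 10 days, where 39.6% of all measured genes did. At matched depth that direction was not kept, with 3 of the 8 nuclear subunits below chow, 5 above it and a median log2 ratio of 0.02.

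In complex IV, Cox4i1, a nuclear subunit that regulates the enzyme, had 883 CPM on chow, 997 CPM at 3 days and 933 CPM at 10 days. Without matching it was the 1 measured nuclear subunit of the complex above chow at either time, with ratios of 1.13 (1.10 to 1.16) and 1.06 (1.03 to 1.09), and it lay above 1 in all 5 bins at both times. At matched depth 6 of the 11 measured nuclear subunits lay above chow at 3 days, 3 of them in all 5 bins, and 4 did at 10 days, 2 of them in all 5 bins. Its annotation overlaps that of Gm20388 on the same strand, so some of its UMIs may be assigned there. Cox5b, which binds zinc, had 269, 230 and 190 CPM, and its 10-day ratio was 0.705 (0.664 to 0.748). At matched depth it was 0.881 of chow, and 0.847 of 3 days with all 5 bins below 1. Cox7b had 194, 152 and 147 CPM, with a 3-day ratio of 0.783 that became 0.910 at matched depth. Cox7a2l, which helps join complexes III and IV into supercomplexes and was counted among the assembly factors, had 317, 384 and 302 CPM. Its 3-day ratio was 1.21 (1.16 to 1.27), and 1.27 at matched depth with all 5 bins above 1. Of the other assembly factors that were measured, all 7 lay below chow at 10 days, where 39.6% of all measured genes did. This count was not taken at matched depth. The lowest was Sdhaf1, a complex II assembly factor, with 19.3, 16.5 and 10.9 CPM.

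Several subunits of complexes IV and V come from paired genes with tissue-specific use, and Kupffer-like cells carried 1 form of each complex IV pair almost alone. Cox6a1 had 675, 619 and 644 CPM in time order, whereas its heart and muscle partner Cox6a2 had 0.175, 0.933 and 0.557 CPM, from 2, 11 and 5 UMIs. Cox7a2 had 360, 308 and 299 CPM, against 4.47, 2.97 and 2.56 CPM of Cox7a1, the muscle form. Cox4i2, the lung form, had at most 0.702 CPM and Ndufa4l2, which is induced by hypoxia in other cells, at most 2 UMIs. Cox6b1 had 507, 438 and 385 CPM, against 5.35, 3.90 and 1.78 CPM of Cox6b2, the testis form. Cox8a had 686, 559 and 506 CPM, while Cox8b and Cox8c had at most 1 UMI in any library. Cox8a was 0.739 of chow at 10 days (0.712 to 0.766), and 0.874 at matched depth with all 5 bins below 1. Ndufa4 had 375, 337 and 319 CPM.

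The 3 genes for subunit c of ATP synthase encode the same mature protein with different targeting peptides, and they differed by diet. Atp5g1 had 214 CPM on chow, 164 CPM at 3 days and 144 CPM at 10 days. Atp5g2 had 377, 369 and 380 CPM, and Atp5g3 had 276, 279 and 343 CPM. The 10-day ratios were 0.674 (0.629 to 0.721) for Atp5g1, 1.01 (0.963 to 1.05) for Atp5g2 and 1.24 (1.18 to 1.31) for Atp5g3. At matched depth they were 0.829, 1.01 and 1.14, with all 5 bins below 1 for Atp5g1 and all 5 above 1 for Atp5g3. Atp5g3 thus passed Atp5g1 by a wider margin at 10 days than on chow. Atp5l, the complex V member with the highest mean, had 727, 752 and 713 CPM with ratios of 1.03 and 0.980. Atp5a1, the alpha subunit of the catalytic head, had 323, 291 and 361 CPM, and its 10-day ratio was 1.12 (1.07 to 1.17). Atp5a1, Uqcrfs1 and Sdhd were named after their values were seen. Across the 15 nuclear subunits of complex V the sum was 0.905 of chow at 3 days and 0.918 at 10 days.

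Other mitochondrial gene groups were set beside the subunits in Kupffer-like cells. Of 72 measured genes of the mitochondrial ribosome, which translates the mitochondrially encoded subunits, 59 lay below chow at 10 days, where 39.6% of all measured genes did, with a median log2 ratio of -0.23, and 32 were past 1.2-fold lower, where 14.6% were. Of 17 genes of the tricarboxylic acid cycle 8 lay below chow, with a median of 0.00. Of 14 genes of mitochondrial biogenesis and transcription 5 lay below chow, with a median of 0.08, and 6 were past 1.2-fold higher, where 24.8% of all measured genes were. Of 27 further assembly and electron carrier genes 15 lay below chow, with a median of -0.19. Of 15 genes of carriers, channels and uncoupling 12 lay below chow, with a median of -0.11. Of 19 genes of mitochondrial chaperones and quality control 8 lay below chow, with a median of 0.05. The mitochondrial ribosome thus had a median like that of the nuclear subunits. The cycle, biogenesis and chaperone lists had medians near those of all genes, and the carriers list lay between. These lists were not recomputed at matched depth.

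Other classes in the same libraries were compared with Kupffer-like cells within each library. No ratio between classes was matched for depth. For classes with at least 20 cells in each library, the ratio to Kupffer-like cells was taken per library and is given as mean ± SD over 3 libraries, for which a two-sided exact sign-flip test cannot go below p = 0.25. T and NK-like cells (117, 96 and 158 cells) had more nuclear and less mitochondrially encoded UMIs than Kupffer-like cells in all 3 libraries. Their nuclear ratio was 1.30 ± 0.11 (SD, n = 3 libraries), and it was highest for complex V at 1.46 ± 0.10 (SD, n = 3 libraries). Their mitochondrially encoded ratio was 0.619 ± 0.061 (SD, n = 3 libraries). Complex II was the exception among nuclear subunits, at 0.855 ± 0.106 (SD, n = 3 libraries).

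Members were counted in each class among those with a mean of at least 50 CPM in the class or in Kupffer-like cells, with 10 CPM added. In T and NK-like cells 32 of 72 nuclear subunits were past 1.2-fold higher in each library, where 28.0% of all such genes were, and 4 were lower (Sdhc, Ndufc1, Uqcr11 and Cox5a), where 42.3% were. Of 12 mitochondrially encoded members 9 were lower in each library. Ndufb11, an X-linked subunit of complex I, had 301, 298 and 267 CPM in T and NK-like cells in time order, against 107, 109 and 90.4 CPM in Kupffer-like cells. Atp5h, a stalk subunit of ATP synthase, had 710, 788 and 812 CPM, against 387, 363 and 320 CPM. Both genes were chosen after their values were seen.

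Cox5a, a nuclear subunit of complex IV, was lower than in Kupffer-like cells in every class compared and in each library. It had 382, 545 and 440 CPM in T and NK-like cells and 407, 346 and 421 CPM in endothelial-like cells, against 860, 772 and 823 CPM in Kupffer-like cells, in time order. In cluster 9, led by S100a4, Napsa, Cd209a, Ccr2 and Cx3cr1 and left unnamed because it carried dendritic and monocyte markers alike, it had 512, 430 and 589 CPM. Hepatocyte-like cells had 659, 523 and 674 CPM. The ratio with 10 CPM added, as geometric mean over libraries, was 0.557, 0.483, 0.624 and 0.755 in the order of these classes. Cox5a was chosen after its values were seen.

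Endothelial-like cells (45, 116 and 87 cells) had a nuclear ratio to Kupffer-like cells of 1.25 ± 0.09 (SD, n = 3 libraries), and 26 of 72 nuclear subunits were past 1.2-fold higher in each library, where 30.7% of all such genes were, so the share was near the background. A further 2 were lower in each library (Cox5a and Atp5g2), where 24.3% of all such genes were. Ndufa8, a complex I subunit of the intermembrane space, had 327, 234 and 237 CPM in endothelial-like cells, against 102, 92.4 and 81.0 CPM in Kupffer-like cells, and was likewise chosen after its values were seen. The mitochondrially encoded ratio was 1.12 ± 0.11 (SD, n = 3 libraries), with 1.16, 1.2 and 0.993 in time order. It was 0.977 without cells over 10% mitochondrial UMIs, a limit that acts on the measured quantity itself. Cluster 9 (70, 61 and 50 cells) had nuclear ratios of 1.03, 1.06 and 1.05 and mitochondrially encoded ratios of 0.651, 0.664 and 0.602, with all 12 counted mitochondrially encoded members lower in each library, where 33.7% of all such genes were. Its cells were deeper than Kupffer-like cells, with medians of 8263.5, 5765 and 5249 UMIs against 4331, 2928 and 2822.5. In Kupffer-like cells the nuclear share was higher and the mitochondrially encoded share lower in deeper cells. Whether either direction in cluster 9 holds at equal depth was not tested.

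**Figure D4:**
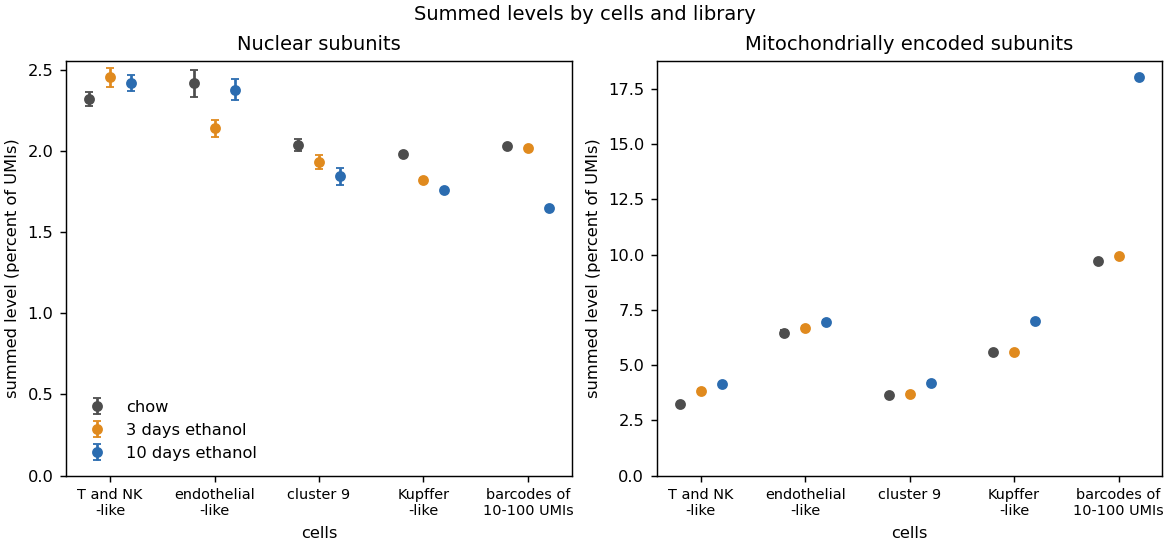
Summed level, as percent of UMIs, of nuclear (left) and mitochondrially encoded (right) subunits by class and library. Points are pooled cells of 1 library and bars are 95% counting intervals, with none drawn for the barcodes of 10 to 100 UMIs. T and NK-like cells lie above Kupffer-like cells on the left and below them on the right in each library, and the 10-day barcodes of 10 to 100 UMIs reach 18.0% on the right.

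Without subtraction of free RNA, the mitochondrially encoded ratio at 10 days over chow had the same direction in the other compared classes as in Kupffer-like cells. Hepatocyte-like cells were the exception. The ratio was 1.28 (1.25 to 1.30) in T and NK-like cells, 1.07 (1.05 to 1.10) in endothelial-like cells and 1.16 (1.13 to 1.19) in cluster 9. At 3 days over chow it was 1.19 (1.16 to 1.22) in T and NK-like cells, 1.03 in endothelial-like cells and 1.02 in cluster 9, against 0.999 in Kupffer-like cells. At 10 over 3 days it was 1.07 (1.05 to 1.10), 1.04 (1.02 to 1.06) and 1.14 (1.11 to 1.17) in these classes, all nearer 1 than the 1.26 of Kupffer-like cells. The differences between classes were not tested. The nuclear ratios at 10 days over chow were 1.04 (1.01 to 1.07) in T and NK-like cells, 0.984 (0.942 to 1.03) in endothelial-like cells and 0.906 (0.875 to 0.937) in cluster 9. In T and NK-like cells the depth of a cell had little relation to the mitochondrially encoded share, with Spearman's rho between -0.15 and 0.02 in the 3 libraries. In time order rho was -0.05, -0.09 and -0.24 in endothelial-like cells and -0.34, -0.31 and -0.25 in cluster 9. Cells of cluster 9 were deepest on chow, and the diet ratios of the classes here were not matched for depth. These classes come from the same 3 mice and the same free RNA, which was richest in mitochondrially encoded UMIs at 10 days. Its estimated share of T and NK-like UMIs was 8.79%, 8.50% and 10.2% in time order. The class ratios were not recomputed with free RNA subtracted, so whether their direction holds was not tested.

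Hepatocyte-like cells (42, 41 and 62 cells), which the sort gate should remove, had 296837 CPM of mitochondrially encoded subunits on chow, 303376 CPM at 3 days and 134673 CPM at 10 days. The 10-day level was 0.454 of chow (0.446 to 0.462), the opposite direction to Kupffer-like cells. Of these cells 76.2%, 65.9% and 56.5% had over 10% mitochondrial UMIs. Without such cells their mean mitochondrially encoded ratio to Kupffer-like cells was 0.641, against 4.23 ± 2.00 (SD, n = 3 libraries) with them. This limit acts on the measured quantity itself, so a fall was built into the comparison. The nuclear level of hepatocyte-like cells at 10 days was 1.38 of chow (1.31 to 1.46). The total by which it was divided includes the mitochondrially encoded UMIs, which took a smaller share at 10 days. On the other UMIs alone the nuclear ratio in this class would therefore be smaller than 1.38. That ratio was not computed.

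Cox6a2 UMIs stood out in the smallest class. The plasmacytoid dendritic-like cluster of 9 cells (1, 7 and 1 in time order) held 2, 59 and 12 UMIs of Cox6a2, which is 533, 1834 and 2675 CPM, against less than 1 CPM in Kupffer-like cells. Every one of the 9 cells had at least 1 UMI. Cox6a2 is itself on the marker list that named this cluster, so its level there is a description.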

How the data were processed

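Libraries were made with the 10x Genomics 3′ v2 chemistry, per the labels' protocols, and the deposited values are raw UMI counts per gene and barcode made with Cell Ranger 2.2.0 on GRCm38 (mm10), per the submitters' processing notes. How reads shared with pseudogene copies were counted is not given in the sources used here. Coordinates of genes came from GENCODE vM21 (GRCm38), which holds 28339 of the 28692 gene IDs, and promoters from RefSeq.

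Barcodes with at least 1000 UMIs and 300 genes were kept, with no limit on mitochondrial UMIs. An automatic doublet threshold marked at most 0.0288% of cells and was judged not to have worked, so the 4% of cells with the highest scores per library were removed. Cells were clustered with scanpy 1.11.5 (2000 variable genes without members or mitochondrially encoded genes, 30 components, 15 neighbours, Leiden resolution 0.6) and named from marker lists, at least 3 markers being needed. Class names were rebuilt here and may differ from those of the study.

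UMIs were summed per library and class and divided by the class total. Ratios carry exact binomial and levels exact Poisson intervals. Those of the ratios were checked on counts simulated from a Poisson model with known ratios, which holds no spread between cells or mice. UMIs are not corrected for free RNA in these ratios and levels. Thresholds of 1.2-fold and 1.5-fold are rules of size, not tests. Named members were every mitochondrially encoded subunit, per complex the highest and the most changed nuclear subunits with at least 50 CPM in a library, and subunits with tissue-specific partners. Members, lists and markers were chosen with earlier results of these data known. Alternatives of cell limits, doublets, weighting, scaling (median of ratios, and TMM with edgeR 4.0.16) and clustering were computed, and those of depth bins, equal clusters, free RNA and shared barcodes were chosen after seeing the data.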

Additional observations from a re-analysis of the deposited data

Results flagged for a closer look

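Hepatocyte-like and Kupffer-like cells had opposite directions of the summed mitochondrially encoded level. At 10 days over chow the ratio was 0.454 (0.446 to 0.462) in hepatocyte-like cells and 1.25 in Kupffer-like cells. At 10 days over 3 days it was 0.444 (0.438 to 0.450) in hepatocyte-like cells and 1.26 in Kupffer-like cells. Each value rests on 1 library per diet, and the difference between the classes was not tested.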

How the results depend on the processing

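Ratios here are for summed levels in Kupffer-like cells, and a value counts as moved when it left the counting interval of the reported one, which is narrow. No paired analysis was possible because each diet has 1 library, and for the same reason no replicate could be left out. The mitochondrially encoded level at 10 days stayed above chow and above 3 days under each of the 13 alternatives to the sums. Against the reported 1.25 over chow and 1.26 over 3 days, it was 1.23 and 1.21 without cells over 10% mitochondrial UMIs, 1.09 and 1.06 without cells over 5%, 1.27 and 1.23 with a cell minimum per library, and 1.25 and 1.23 with doublets kept. It was 1.21 and 1.27 with cells thinned to 1000 UMIs, 1.27 and 1.27 scaled to other UMIs than mitochondrially encoded ones, 1.21 and 1.24 with median-of-ratios factors, and 1.21 and 1.24 with TMM. It was 1.05 and 1.25 with depth bins weighted equally, 1.05 and 1.2 with clusters weighted equally, and 1.13 and 1.15 with free RNA subtracted. Over chow alone it was 1.29 with variable genes from all genes and 1.26 without shared barcodes. At 3 days over chow, reported as 0.999, the same settings put it on both sides of 1. It was 1.01 and 1.03 under the mitochondrial limits of 10% and 5%, 1.03 with a cell minimum per library, 1.01 with doublets kept, and 1.03 with variable genes from all genes. It was 0.951 thinned, 0.981 with median of ratios, 0.982 with TMM, 0.843 by depth bins, 0.876 by clusters and 0.988 with free RNA subtracted.

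The nuclear level at 10 days over chow, reported as 0.886, was 0.893 and 0.956 under the mitochondrial limits of 10% and 5%, 0.879 with a cell minimum per library, 0.899 scaled to other UMIs, 0.858 with median of ratios, 0.858 with TMM and 0.893 with free RNA subtracted. It came closest to 1 by depth bins, at 0.969, and by clusters, at 1.00. At 3 days over chow, reported as 0.920, it was 0.911 under the limit of 5%, 0.903 with median of ratios, 0.904 with TMM, 0.913 with free RNA subtracted, 0.991 by depth bins and 0.991 by clusters. At 10 over 3 days, reported as 0.963, it was 0.972 under the limit of 10%, 0.978 scaled to other UMIs, 0.950 with median of ratios, 0.949 with TMM, 0.978 by depth bins and 0.978 with free RNA subtracted, and it turned above 1 under the limit of 5%, at 1.05, and by clusters, at 1.01.

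Of nuclear members past 1.2-fold lower at 10 days over chow, 31 became 16 under the limit of 5%, 10 by depth bins and 1 by clusters, and 3 higher became 0 by depth bins and by clusters. At 3 days over chow 15 lower became 3 by depth bins and 5 by clusters, and 1 higher became 2 under the limit of 5%, with no filter on low counts and by depth bins, and 3 by clusters. At 10 over 3 days 7 lower became 4 under the limit of 10%, 11 thinned, 3 scaled to other UMIs, by depth bins and with free RNA subtracted, and 2 by clusters, and 3 higher became 6 under the limit of 5%.

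Among 1595 alternative ratios of named members, 1165 stayed within the counting interval, 424 moved and 6 turned round. At 10 days over chow these were Cox7a1, at 1.18 under the limit of 5%, Uqcr10, at 1.04 by clusters, and mt-Nd6, at 0.996 by depth bins and 0.838 by clusters. At 10 over 3 days they were Cox5b, at 1.05 under the limit of 5%, and Cox6a2, at 3.82 thinned, where a few UMIs decide the value. Without cells over 10% mitochondrial UMIs the mean class ratio to Kupffer-like cells was 0.977 for the endothelial-like mitochondrially encoded level, 0.641 for the hepatocyte-like one and 2.41 for the hepatocyte-like nuclear level. This limit acts on the mitochondrially encoded levels directly and on the nuclear level through its denominator. The cause of these changes was not tested. Classes of under 200 cells per library and members under 50 CPM are limited by counts.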
